A study of Mus musculus with 105 samples.

Results

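The genes described here encode the liver's complement and coagulation proteins. A fixed list of 38 gene symbols was looked up in the deposited expression matrix, and 36 of them were measured among the 12966 genes there; Cfb and Klkb1 are not analysed here. The lookup used no measured value, but the list was chosen with earlier results of these data known. The study profiled mouse liver RNA during chemical hepatocarcinogenesis in wild type mice and in mice labelled as knockouts of a signalling protein, a loss that the series title places in hepatocytes. It holds 105 libraries in 30 groups, sequenced as 2 separate sets. In sequencing group 1 the mice were wild type (WT), Ikk knockout (IKO) or Shp2 knockout (SKO), with 4 libraries per group. In sequencing group 2 they were WT, beta catenin knockout (BKO) or cMet knockout (MKO), with 3 per group. Every group, WT included, carries the treatment label DEN, the liver carcinogen diethylnitrosamine, so no untreated liver is compared. Each genotype was sampled as non-tumour liver at 1, 3, 5 and 8 months and as tumour at 8 months. The labels name neither a Cre driver, an Ikk subunit nor a sex, and they number the libraries of a group as biological replicates without saying that each came from a different animal or which tumour belongs to which liver. P-values therefore measure the spread between these libraries.

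Complement is a cascade of plasma proteases and binding proteins: mannose-binding lectins and their proteases recognise surfaces, C2, C3 and C4 amplify the signal, and the terminal components C5 to C9 assemble a pore in the target membrane. Coagulation runs from the contact and intrinsic factors and from factor VII to prothrombin, thrombin and a fibrin clot, with antithrombin, protein C and protein S as brakes and plasmin as the enzyme that dissolves the clot. Hepatocytes secrete most of these proteins, and fibrinogen and C3 belong to the acute phase proteins that interleukin 6, through STAT3 and C/EBP factors, is known to raise.

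The 3 fibrinogen chain genes Fgg, Fga and Fgb lie side by side on chromosome 3 between 83007724 and 83049863 (GRCm38), which is why their promoters are shown together. They are followed by those of F11, Mbl2 and C9, on which the comparisons below turn. Each sequence covers 250 bases before to 50 bases after the annotated start and is taken from RefSeq (GRCm38.p6), which held an entry for 27 of the 36 genes. Capitals mark matches, on either strand, to an HNF1 half-site (GTTAAT), a STAT site (TTCNNNGAA) or a C/EBP site (TTGCNNAA).
Fgg, chr3:83007474-83007773, plus strand: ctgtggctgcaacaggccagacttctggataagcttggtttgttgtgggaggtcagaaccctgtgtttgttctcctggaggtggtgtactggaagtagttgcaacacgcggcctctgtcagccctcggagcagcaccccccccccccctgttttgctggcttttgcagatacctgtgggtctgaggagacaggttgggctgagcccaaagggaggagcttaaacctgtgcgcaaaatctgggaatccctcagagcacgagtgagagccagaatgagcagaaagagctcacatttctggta
Fga, chr3:83025903-83026202, plus strand: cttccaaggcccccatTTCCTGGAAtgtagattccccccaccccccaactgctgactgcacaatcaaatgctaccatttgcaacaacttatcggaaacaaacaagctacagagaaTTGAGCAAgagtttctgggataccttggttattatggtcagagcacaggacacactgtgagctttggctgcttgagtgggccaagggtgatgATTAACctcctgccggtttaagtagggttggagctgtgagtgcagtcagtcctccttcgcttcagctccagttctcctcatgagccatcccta
Fgb, chr3:83049814-83050113, minus strand: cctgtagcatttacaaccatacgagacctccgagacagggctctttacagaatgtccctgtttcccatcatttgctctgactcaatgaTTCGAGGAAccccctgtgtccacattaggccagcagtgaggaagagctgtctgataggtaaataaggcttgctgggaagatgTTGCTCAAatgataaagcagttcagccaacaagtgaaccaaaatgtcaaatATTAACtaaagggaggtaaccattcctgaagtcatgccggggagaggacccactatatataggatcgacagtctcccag
F11, chr8:45261982-45262281, minus strand: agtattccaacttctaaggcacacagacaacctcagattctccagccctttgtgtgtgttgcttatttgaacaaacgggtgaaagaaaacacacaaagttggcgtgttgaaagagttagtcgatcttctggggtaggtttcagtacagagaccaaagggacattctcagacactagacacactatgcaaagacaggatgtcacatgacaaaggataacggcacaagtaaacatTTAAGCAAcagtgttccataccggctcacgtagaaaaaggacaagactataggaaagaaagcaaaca
Mbl2, chr19:30232678-30232977, plus strand: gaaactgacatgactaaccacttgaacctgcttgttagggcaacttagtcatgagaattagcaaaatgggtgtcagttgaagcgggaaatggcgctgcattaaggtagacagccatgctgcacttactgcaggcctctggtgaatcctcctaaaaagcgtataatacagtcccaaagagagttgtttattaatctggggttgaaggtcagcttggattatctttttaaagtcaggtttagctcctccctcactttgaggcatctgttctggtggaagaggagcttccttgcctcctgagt
C9, chr15:6445096-6445395, plus strand: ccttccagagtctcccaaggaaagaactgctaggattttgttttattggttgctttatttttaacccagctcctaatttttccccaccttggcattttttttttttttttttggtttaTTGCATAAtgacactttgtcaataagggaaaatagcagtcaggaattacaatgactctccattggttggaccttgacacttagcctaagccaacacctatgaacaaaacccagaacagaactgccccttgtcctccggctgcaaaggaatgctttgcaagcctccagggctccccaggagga
Fga and Fgb each held all 3 motifs, while the Fgg and Mbl2 windows held none of them. The C9 and F11 windows each held a C/EBP match only. Over the 27 genes, an HNF1 half-site was found in 10 promoters (37.0%, against 7.10% of all 32851 RefSeq promoters), a STAT site in 8 (29.6% against 8.30%) and a C/EBP site in 9 (33.3% against 10.8%). A TCF/LEF site (CTTTGAT) was found in 1 (3.70% against 3.73%). These matches describe the letters of the windows and are no measure of binding.

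Depth ranged from 4676444 to 20231121 reads per library (median 8353515), and the complement and coagulation genes took 1.81 to 3.77% of the reads in group 1 and 2.04 to 3.16% in group 2. No member was at 0 in any library. Levels are given as normalised reads, that is, reads divided by the library's size factor, and differences as log2 values ± their standard error (SE) from limma. Adjusted p-values are limma's, adjusted over all 12966 genes of a comparison, and a gene is called at an adjusted p below 0.05. Percentages of all genes count calls at that threshold. All genes were not counted at an unadjusted p below 0.05, so counts of members there cannot be read as an excess. Ptpn11, which encodes Shp2, was lower in SKO than in WT non-tumour liver (means 163 and 371.6), by 1.12 ± 0.08 on the log2 scale with an adjusted p of 6.18e-16. Ikbkb and Met were 0.32 ± 0.07 and 0.31 ± 0.07 lower in IKO and MKO (adjusted p = 0.00258 and 0.0118). Met was also 0.23 ± 0.08 lower in SKO (adjusted p = 0.0221). The Ikbkb means at 1 month were 205.5 in IKO, 231.7 in SKO and 344.1 in WT. At 3 months they were 352.9 in IKO and 340.4 in WT. Ctnnb1, encoding beta catenin, was at a mean of 119 in BKO and 120 in WT (adjusted p = 0.931). The library type counts 3′ ends, so a deleted exon upstream need not lower the count. One library labelled SKO, replicate 2 at 3 months, had 375.1 normalised reads of Ptpn11, within the WT values. It was left out in an added analysis. So were replicate 1 of IKO at 5 months and replicate 1 of WT at 3 months in group 1. Over all genes, their spread about the group mean was 1.42 and 1.40 times the median of the group's other libraries. The next highest ratio, 1.35 for replicate 1 of WT at 1 month in group 2, led to no omission. The 3 left out are called the libraries that stood apart below. Replicate 1 of the group 1 WT tumours was not left out there, though 3.77% of its reads lay in these genes against 2.25 to 2.32% in the other 3. Of 10 hepatocyte markers, among them Alb and Apoa1, none was at 0 in every library of any group.

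The largest differences were found between tumour and non-tumour liver at 8 months. Each genotype has its own libraries there, so that the comparison can be read 6 times. In WT mice of group 1, 9 of the 36 genes rose and 17 fell (42.1% of all genes were called, 22.9% higher and 19.2% lower). In IKO 9 rose and 12 fell (33.3% of all genes called, 18.2% higher and 15.1% lower), and in SKO 10 rose and 12 fell (39.7%, 21% higher and 18.7% lower). In WT of group 2, 4 rose and 12 fell (27.1%, 15% higher and 12% lower). BKO had 3 and 6 (14.7%, 8.39% higher and 6.32% lower) and MKO 5 and 10 (17.3%, 9.76% higher and 7.56% lower). The share of members that fell was thus above that of all genes in each comparison, while the share that rose lay closer to it. All genes are not matched to the members for level. Of the 12966, 7516 in group 1 and 7537 in group 2 had a mean of 6 or more on the deposited log2 scale. The median difference of the 36 genes was −0.33 in WT of group 1, −0.18 in IKO, −0.06 in SKO, −0.21 in WT of group 2, −0.16 in BKO and −0.20 in MKO, while that of all genes lay between 0.01 and 0.04. Kng1 and F11 rose and Mbl1, Mbl2, C8b and C9 fell in all 6 comparisons. By comparison, 3.55% of all genes were called higher and 2.16% called lower in all 6. Called or not, 24 of the 36 genes (66.7%) had the same sign in all 6 comparisons, 7 of them higher and 17 lower in tumours, against 43.2% of all genes. Those higher were 19.4% of the members against 23.7% of all genes, and those lower 47.2% against 19.5%. Between the WT mice of the separate sets, 11 genes fell in both, which is 64.7% of the 17 in group 1 and 91.7% of the 12 in group 2, against 46.1% and 73.5% of the calls lower over all genes. Of the members that rose, 3 did so in both, 33.3% of the 9 in group 1 and 75% of the 4 in group 2, against 47.7% and 72.8% over all genes. Under quantile normalization the calls in WT of group 2 became 8 higher and 12 lower.

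**Figure D1:**
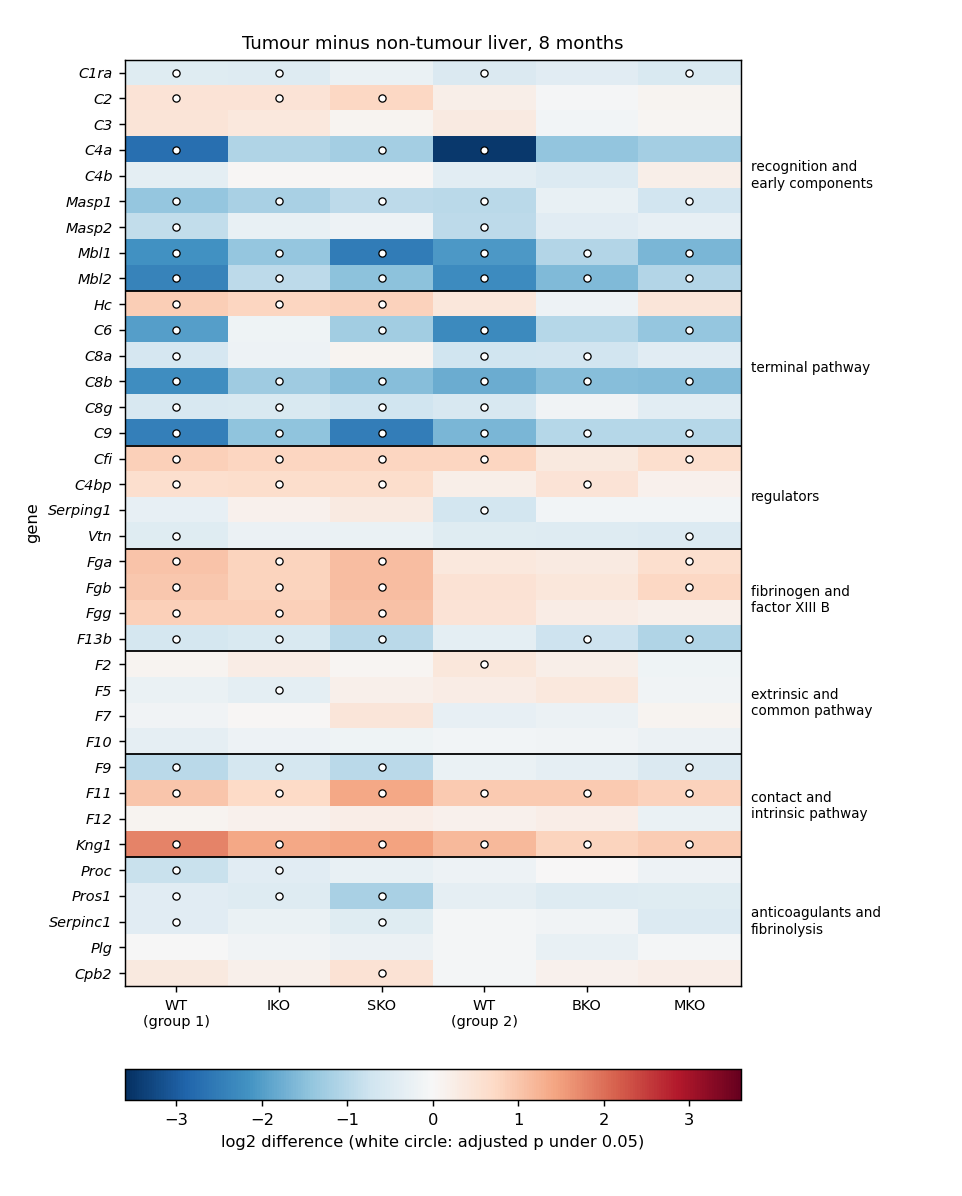
Difference between tumour and non-tumour liver at 8 months (log2, tumour minus non-tumour) for the 36 measured genes, ordered by role, in WT, IKO and SKO of group 1 and WT, BKO and MKO of group 2. White circles mark an adjusted p below 0.05; Mbl1, Mbl2, C8b and C9 are lower and Kng1 and F11 higher with a circle in all 6 columns.

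The recognition genes that fell in all 6 comparisons were Mbl1 and Mbl2. Mbl1 and Mbl2 encode the mannose-binding lectins, which bind sugars on microbial surfaces and start the lectin pathway. In WT of group 1, Mbl2 (chromosome 19, 30232906 to 30239687) had 5081, 5583, 5824 and 4371 normalised reads in non-tumour liver and 985, 982, 749 and 1130 in tumours, a fall of 2.41 ± 0.16 (adjusted p = 1.09e-16). In WT of group 2 it had 3735, 3305 and 4031 against 411, 1635 and 619, and fell by 2.25 ± 0.31 (adjusted p = 1.64e-06). Every tumour lay below every non-tumour liver in both sets of WT mice. The decrease of Mbl2 was 0.95 ± 0.16 in IKO, 1.06 ± 0.31 in MKO, 1.47 ± 0.16 in SKO and 1.60 ± 0.31 in BKO. Mbl1 had its largest decrease in SKO, with 1003, 1144, 1289 and 1376 normalised reads in liver and 194, 191, 182 and 185 in tumour, a fall of 2.51 ± 0.19 (adjusted p = 3.78e-15). In MKO the Mbl1 values were 2392, 1829 and 2494 against 426, 524 and 1423, and the groups again did not overlap.

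Of the lectin-associated proteases, Masp1 fell in 5 comparisons, by 0.68 to 1.38, and was 0.27 ± 0.17 lower in BKO (adjusted p = 0.33). Masp2 fell in WT of group 1 (0.88 ± 0.15) and of group 2 (0.94 ± 0.21), and was called in no knockout. C1ra, a protease of the classical pathway, fell in 4 comparisons. C2, which supplies the protease of the C3 convertase, went the other way: it rose in WT of group 1 (0.49 ± 0.18), IKO (0.50 ± 0.18) and SKO (0.74 ± 0.18). C3, the central component, and C4b were called in none of the 6. C4a, a C4 paralog known in mice as sex-limited protein, fell by 3.48 ± 0.54 in WT of group 2, by 2.72 ± 0.48 in WT of group 1 and by 1.22 ± 0.48 in SKO. C4a and C4b are near-identical neighbours on chromosome 17, so reads could be divided between them in either direction, and their values are uncertain. Over the 9 recognition and early genes, 1 rose and 6 fell in WT of group 1 (22.9% and 19.2% of all genes). In WT of group 2, 0 rose and 6 fell (15% and 12% of all genes). The counts in BKO were 0 and 2 (8.39% and 6.32%). No member's tumour effect was called different between BKO and WT in the test of that difference, given below.

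Among the terminal components C6, C8a, C8b, C8g and C9 fell in part or all of the comparisons, and Hc rose. C9 is the subunit that forms the pore of the membrane attack complex. In WT of group 1 it had 10081, 15921, 7981 and 8764 normalised reads in liver and 7106, 1084, 878 and 1655 in tumours, a fall of 2.47 ± 0.36 (adjusted p = 1.24e-07). Tumour replicate 1 was the high one, and without it the fall of C9 was 3.11 (adjusted p = 1.44e-11). C8b, which encodes the beta chain of C8, fell by 1.27 to 2.22 over the 6 comparisons; in BKO its values were 4212, 8188 and 5077 in liver and 1175, 2574 and 2360 in tumour, without overlap. C6 had 2833, 4353 and 3206 normalised reads in WT liver of group 2 and 785, 1410 and 264 in tumours, and fell by 2.30 ± 0.38 (adjusted p = 2.57e-05). C6 also fell in WT of group 1, SKO and MKO, and in IKO it was 0.16 lower (adjusted p = 0.736). C8a fell in BKO and both sets of WT mice by 0.59 to 0.73, and C8g in WT of both groups, IKO and SKO by 0.54 to 0.71. Hc, the gene of C5, rose by 0.78 to 0.89 in WT of group 1, IKO and SKO, and was −0.18 ± 0.20 in BKO (adjusted p = 0.625).

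Among the regulators, Cfi, encoding factor I, which cleaves C3b and C4b, rose in 5 comparisons by 0.62 to 0.87 and was 0.35 ± 0.15 higher in BKO (adjusted p = 0.112), with no overlap of tumour and liver in any of the 6. C4bp, the cofactor that binds C4b, rose in 4 comparisons by 0.49 to 0.63. Serping1, the C1 inhibitor, was called in WT of group 2, where it fell by 0.66 ± 0.15. Vtn, vitronectin, fell in WT of group 1 and in MKO.

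Contact and fibrinogen genes made up most of the increases. Kng1 (chromosome 16, 23058220 to 23082078) encodes high molecular weight kininogen, the cofactor of the contact system and the source of bradykinin. It had 5196, 4518, 5668 and 5882 normalised reads in WT liver of group 1 and 25032, 15676, 18286 and 15612 in tumours, a rise of 1.78 ± 0.16 (adjusted p = 9.98e-13). In IKO the values were 6062, 5207, 4252 and 5889 against 12650, 19869, 10897 and 14018, and in WT of group 2 they were 4125, 4240 and 4320 against 6629, 9433 and 14050. Tumours and liver did not overlap in 5 of the 6 comparisons; in BKO it had 10211, 5109 and 5376 in liver and 9367, 12400 and 12585 in tumour (0.79 ± 0.20, adjusted p = 0.00768), and liver replicate 1 lay among the tumours. Its near-identical neighbour Kng2 also rose in WT of group 1 (2.13 ± 0.21), so that the reads of the pair may be shared.

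F11 encodes factor XI, the protease that activates factor IX. In SKO it had 152, 166, 144 and 108 normalised reads in liver and 447, 313, 509 and 416 in tumour, a rise of 1.40 ± 0.28 (adjusted p = 5.34e-05). In MKO it had 196, 273 and 127 against 389, 371 and 331, and in BKO 287, 223 and 203 against 432, 460 and 535. Tumours lay above liver without overlap in all 6 comparisons, with differences of 0.72 to 1.40. F9, the substrate of factor XI, moved the other way, falling in 4 comparisons by 0.53 to 0.98. F12, which starts the contact pathway, was called in none.

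The 3 fibrinogen chains rose together in group 1. Fgb had 17363, 14318, 14746 and 18153 normalised reads in SKO liver and 41436, 31178, 29695 and 39354 in SKO tumours (1.12 ± 0.24, adjusted p = 0.000165). In MKO, Fgb had 19919, 22326 and 16331 against 33122, 31023 and 34180 (0.76 ± 0.20, adjusted p = 0.0074). Both sets of tumours lay above all of their livers. Fga rose by 0.81 to 1.10 and Fgg by 0.85 to 1.05 in the 3 group 1 genotypes. In WT of group 1 the size of these rises rests on tumour replicate 1, with 85098 normalised reads of Fgb against 25348 to 39425 in the others: without it the rise was 0.60 for Fgb (adjusted p = 0.0303) and 0.66 for Fga (adjusted p = 0.0229), and Fgg was no longer called (0.45, adjusted p = 0.108). In group 2, Fga and Fgb rose in MKO, and no fibrinogen chain was called in WT or BKO, where the differences were 0.27 to 0.52. F13b, which encodes the carrier subunit of the clot-stabilising factor XIII, fell in 5 comparisons by 0.55 to 1.07.

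Calls were fewer among the remaining coagulation genes. F7, F10 and Plg, the gene of plasminogen, were called in none of the 6 comparisons. F2, prothrombin, rose in WT of group 2 (0.42 ± 0.15, adjusted p = 0.0365), and F5 fell in IKO (0.36 ± 0.11, adjusted p = 0.0122). Pros1, encoding the anticoagulant protein S, fell by 1.18 ± 0.15 in SKO (adjusted p = 8.84e-09), by 0.46 in IKO and by 0.41 in WT of group 1. Proc, protein C, fell in WT of group 1 (0.80 ± 0.15) and IKO, and Serpinc1, antithrombin, in WT of group 1 and SKO by 0.40 and 0.45. Cpb2, which slows fibrinolysis, rose in SKO (0.53 ± 0.16). In group 2 no gene of this anticoagulant and fibrinolysis list was called.

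**Figure D2:**
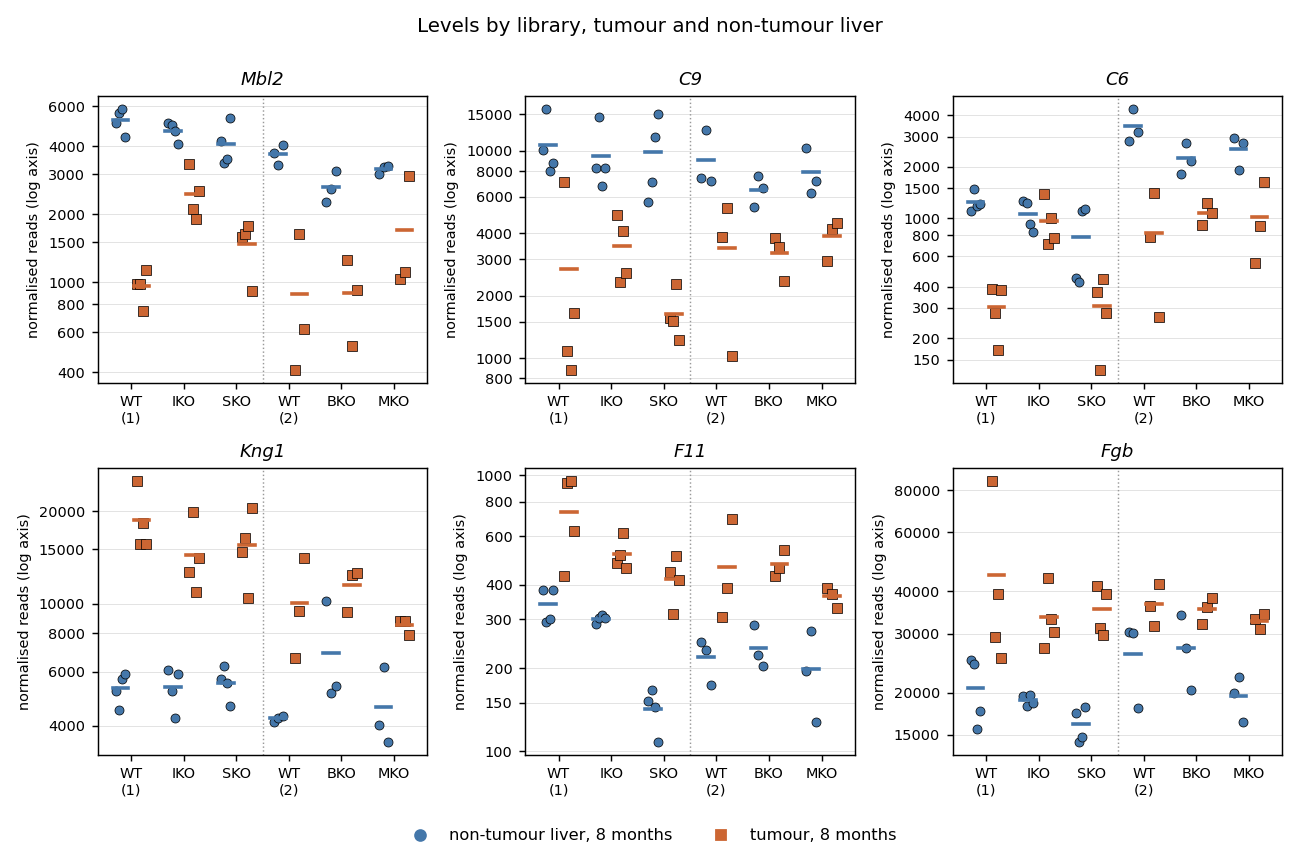
Normalised reads per library (log axis) of Mbl2, C9, C6, Kng1, F11 and Fgb in non-tumour liver (blue circles) and tumour (orange squares) at 8 months for each of the 6 genotype and sequencing group combinations; bars are means. The F11 squares sit above the circles everywhere, and 1 square of C9 in WT of group 1 (7106) sits far above the other 3.

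These calls differ in how far they rest on single libraries. Of the 109 member calls in the 6 comparisons, 77 held whichever single library was left out, and 32 were lost at least once: 6 of 26 in WT of group 1, 5 of 21 in IKO, 1 of 22 in SKO, 3 of 16 in WT of group 2, 7 of 9 in BKO and 10 of 15 in MKO. C8b was never among them. The C4a call in SKO was lost under 5 of 8 omissions, and without liver replicate 4 the fall was 0.71 (adjusted p = 0.268). F2 in WT of group 2 was lost under 5 of 6 (adjusted p = 0.0623 to 0.208), and C8g there under 3 of 6, with a fall of 0.30 without tumour replicate 1 (adjusted p = 0.350). Vtn was lost in MKO under 4 of 6, with a fall of 0.28 without liver replicate 3 (adjusted p = 0.354), and in WT of group 1 under 3 of 8 (highest adjusted p 0.120). C2, C8a and Pros1 in WT of group 1 were each lost under 4 of 8 (highest adjusted p 0.0831, 0.121 and 0.143) and Serpinc1 under 1. In IKO, Proc was lost under 4 of 8, Pros1 under 3, C2 under 2 and Fgb under 1 (highest adjusted p 0.118). F9 in MKO was lost under 4 of 6, down to a fall of 0.35 (adjusted p = 0.284), C6 and C1ra there under 2, and Fga, Fgb and Masp1 under 1. C4bp in BKO was lost under 4 of 6 (highest adjusted p 0.128), F13b under 2 and C8a under 1. The F11 call in IKO was lost without any of the liver replicates or tumour replicate 2 or 3 (adjusted p = 0.0579 to 0.106). In group 2, F11 was lost in WT without tumour replicate 3 (0.0793), in BKO without liver replicate 3 (0.0567) and in MKO without liver replicate 3 (0.151) or tumour replicate 1 or 2 (0.0702 and 0.0501). Kng1 in BKO was lost without liver replicate 2 (0.0939) or 3 (0.0731), and Mbl1 in BKO without liver replicate 2 (0.0576). C9 in BKO was lost under 5 of 6 omissions (highest adjusted p 0.160) and in MKO under 4 of 6 (0.186), and Mbl2 in MKO without liver replicate 3 or tumour replicate 1 or 2 (0.0558 to 0.147). When only the 6 libraries of a comparison were fitted, BKO and MKO had 0 member calls, and the adjusted p of C8b, for example, was 0.0777 and 0.0913. In BKO, the liver and tumour libraries of 1 number deviated together. With the replicate number as a block in that small fit, 7 members were called, 5 of them also called above, and Kng1, C8a, C4bp and F13b were lost.

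Lists of other genes of the same pathways, none of them among the 36, were counted in the same way. Of 25 other complement genes, 2 rose and 9 fell in WT of group 1 (22.9% and 19.2% of all genes). For the other comparisons only the falls are given: 7 in IKO, 9 in SKO, 7 in WT of group 2 and 5 each in BKO and MKO. Colec10 and Fcna, which encode a collectin and a ficolin of the lectin pathway, fell by 1.38 and 1.37. Of 30 other coagulation and fibrinolysis genes, 15 rose and 3 fell in WT of group 1, 14 and 2 in IKO, 19 and 2 in SKO, 13 and 2 in WT of group 2, 8 and 1 in BKO and 11 and 1 in MKO. Pzp, a broad protease inhibitor, rose by 1.74 ± 0.13 (adjusted p = 7.61e-16) and Serpina1b, an alpha-1-antitrypsin gene, by 2.08. Of 15 liver transcription factors, 2 rose and 3 fell in WT of group 1, Cebpa by 0.74 ± 0.18 (adjusted p = 0.000931). Of 9 genes of the interleukin 6 and STAT3 pathway, 1 rose and 4 fell, among them Il6st, the shared receptor chain (0.72 ± 0.12, adjusted p = 3.88e-06). Of 23 other secreted plasma proteins, 11 rose and 4 fell.

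Cell type markers moved in the same comparisons. In WT of group 1, 2 of 10 hepatocyte markers rose (Alb by 1.74, Apoa1 by 2.04) and 5 fell (Cps1 by 1.80, Pck1 by 2.19), and their summed level went from 279792 to 704738 normalised reads in liver to 1399860 to 1850440 in tumour. Alb alone took 1.90 to 6.27% of the reads in these livers and 14.0 to 15.6% in the tumours, so the sum mostly follows that gene. Of 8 cholangiocyte markers 5 rose, from a sum of 161 to 560 to one of 1278 to 4694, and of 12 stellate cell markers 7 rose and 2 fell. Of 14 macrophage markers 2 rose and 3 fell. Cholangiocyte markers rose in 3 or 4 of 8 cases in the other genotypes except BKO, where 0 were called. The part of these changes in the results above was not tested. In bulk liver, fewer cells of a type and less RNA per cell cannot be told apart.

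In SKO mice many of these genes were lower in non-tumour liver. Over the 4 ages, each compared with WT of its age and averaged with equal weight, 19 of the 36 genes were lower and 1 was higher in SKO liver (22.9% of all genes were called, 12% higher and 10.9% lower). The median difference of the 36 was −0.23, against 0.01 over all genes. Under quantile normalization the counts were 16 and 3. The WT libraries are shared with the IKO comparison. Leaving out the 3 libraries that stood apart gave 22 lower and 2 higher, with all 20 genes among them.

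F11 had the largest decrease. At 1 month it had 140, 166, 141 and 166 normalised reads in SKO and 479, 532, 648 and 841 in WT. At 8 months it had 152, 166, 144 and 108 against 384, 294, 300 and 383. At those ages every SKO library lay below every WT library. At 3 months the values were 150, 666, 357 and 161 against 427, 400, 471 and 432, where the 666 belongs to the library with Ptpn11 at the WT level. Averaged over ages F11 was 1.17 ± 0.14 lower (adjusted p = 4.97e-09), and 1.27 ± 0.11 lower without the 3 libraries.

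F5, encoding the cofactor of factor Xa, was 0.59 ± 0.06 lower (adjusted p = 1.73e-11) and was called at each age. With only the groups compared in the fit, F5 was not called at 3 or 8 months (adjusted p = 0.242 and 0.0503), nor at 3, 5 or 8 months with the replicate block added to that fit (0.303, 0.0649 and 0.115), nor at 8 months under quantile normalization (0.110). At 1 month it had 1517, 1818, 1701 and 1648 normalised reads in SKO and 2975, 3538, 2798 and 2867 in WT, with no overlap. Masp1 was 0.76 ± 0.11 lower (means 414 and 716) and C4a 0.97 ± 0.24 lower (means 85.9 and 183). F7 was lower by 0.48 ± 0.10, C8b by 0.45 ± 0.14, Plg by 0.42, C8a by 0.40, Masp2 by 0.39, Mbl2 and Proc by 0.33, and C2 and Cfi by 0.31. The smaller decreases were those of C8g, Cpb2, F10, F9, F2 and C1ra, at 0.17 to 0.26. By role, 6 of 9 recognition genes, 3 of 6 terminal genes, all 4 genes of the extrinsic and common pathway and 3 of 5 anticoagulant and fibrinolysis genes were lower. Of the regulators only Cfi was called lower, and of the contact and intrinsic genes only F9 and F11. None of the fibrinogen chains or F13b was called.

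C3 was the member that was higher. At 1 month it had 33524, 37372, 31060 and 30189 normalised reads in SKO against 16339, 14266, 19684 and 19213 in WT, without overlap. Over the ages the difference was 0.62 ± 0.12 (adjusted p = 8.39e-05; means 24437 and 15783). At single ages C3 was called at 1 month (0.93) and was 0.30, 0.53 and 0.72 higher at 3, 5 and 8 months. The 3 fibrinogen chains were 0.26 to 0.30 lower without being called, and were called when the 3 libraries were left out (0.33 to 0.38 lower). Taken 1 age at a time, 10 members were called at 1 month (16.1% of all genes), 4 at 3 months (5.19%), 4 at 5 months (6.02%) and 6 at 8 months (5.03%). Quantile normalization called 19 at 1 month. With only the groups compared in the fit, the counts at 3, 5 and 8 months were 0, 7 and 1, and with the replicate block added to it 0, 0 and 1. Without the libraries that stood apart, 7 were called at 3 months. Of the 10 at 1 month, C3 was higher and the other 9 were lower, among them Plg by 0.92 ± 0.17 (adjusted p = 0.000132), C2 by 0.73, F13b by 0.62 and Mbl2 by 0.61. At 8 months C4a was 1.97 ± 0.48 lower (adjusted p = 0.0098) and C8b and C8a were 0.92 and 0.87 lower, with overlap of the C8a and C8b values. C1ra lost its call under 23 of 32 single omissions, F2 under 14, and F10 without SKO replicate 4 at 3 or 5 months (adjusted p = 0.0502 and 0.0512).

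**Figure D3:**
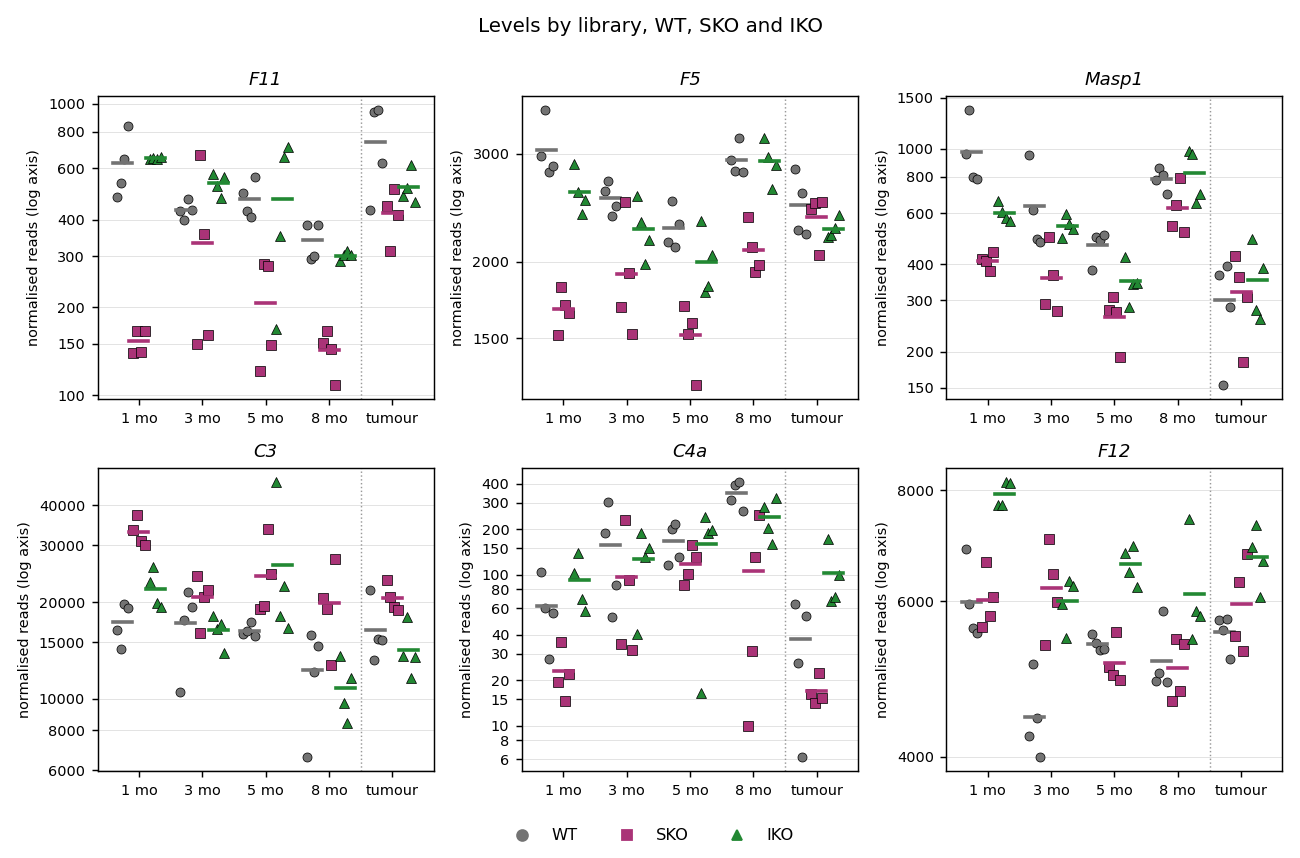
Normalised reads per library of F11, F5, Masp1, C3, C4a and F12 in group 1 at 1, 3, 5 and 8 months (non-tumour) and in 8 month tumours: WT grey circles, SKO purple squares, IKO green triangles, bars for means. F11 and F5 squares lie below the circles at 1 month, C3 squares above them, and the F12 triangles of IKO lie above the circles at 1, 3 and 5 months.

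Other lists moved with SKO as well. Macrophage markers were higher in 13 of 14 cases, with sums of 7043 to 9211 normalised reads in SKO against 3583 to 8154 in WT at 1 month and of 7980 to 8808 against 2259 to 6378 at 8 months. Hepatocyte markers were lower in 5 of 10 cases and higher in 1, with sums at 1 month of 246784 to 319815 in SKO against 641831 to 842070 in WT. These sums too lean on Alb, at 2.17 to 2.65% of the reads in SKO and 6.25 to 7.81% in WT at 1 month. Alb was 1.09 ± 0.15 lower (adjusted p = 1.04e-07), Apoa1 0.75 lower and Ttr 0.60 lower. Of 23 other secreted plasma proteins, 10 were lower and 1 higher. Of 25 other complement genes, 9 were higher and 5 lower; those higher include C1qb (0.84) and Vsig4 (0.71), which are also macrophage genes, and those lower include C1rl (0.52) and C1s1 (0.36). Of 30 other coagulation genes, 13 were lower and 6 higher, with Adamts13, the protease that trims von Willebrand factor, 1.83 ± 0.10 higher (adjusted p = 1.02e-21). The part of these movements in the member differences was not tested.

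The SKO difference varied with age for 3 members, by a test over all 4 ages (5.68% of all genes were called). Under quantile normalization the same test called 2 members, only 1 of them among these 3. Without the 3 libraries that stood apart it called 4, of which 2 were among these 3. C6 (adjusted p = 0.0392) and Plg (0.0100) were then called as well. C4bp was 0.18 and 0.49 higher at 1 and 3 months and 0.27 and 0.44 lower at 5 and 8 months (adjusted p = 0.0113). F13b was 0.62 lower at 1 month and between −0.15 and 0.19 afterwards (adjusted p = 0.0336), a call lost under 6 of 32 omissions. F12 was 0.48 higher at 3 months and within 0.07 of WT at the other ages (adjusted p = 0.0277, and 0.102 without the 3 libraries), a call lost under 3 of 32 omissions.

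In IKO non-tumour liver 1 of 36 was higher and 0 were lower (9.04% of all genes were called, 3.87% higher and 5.17% lower), with 9 at an unadjusted p below 0.05. Under quantile normalization 1 was higher and 2 were lower. The gene was F12, the contact factor that starts the intrinsic pathway. At 1 month it had 7706, 7701, 8181 and 8148 normalised reads in IKO against 6872, 5946, 5592 and 5518 in WT, at 3 months 5955, 5454, 6329 and 6244 against 4221, 5097, 4429 and 3998, and at 5 months 6800, 6463, 6925 and 6222 against 5508, 5378, 5285 and 5296. Each IKO library lay above each WT library at those ages. At 8 months the groups overlapped. F12 was 0.35 ± 0.05 higher over all ages (adjusted p = 3.22e-06), and this call held under every omission of a single library. At 1 month taken alone, 4 members were called: F12 was 0.41 ± 0.10 higher (adjusted p = 0.00695, and 0.0601 under quantile normalization), C4b was 0.58 higher and Masp1 and F13b were 0.64 and 0.47 lower (adjusted p = 0.0479, 0.0479 and 0.0324; 9.17% of all genes were called). At 3 months F12 alone was called, 0.44 ± 0.10 higher (adjusted p = 0.0416; 0.201% of all genes). That call was lost under quantile normalization (0.076), with the replicate block (0.0519), with only the groups compared in the fit (0.435, and 0.702 with the block added) and without the libraries that stood apart (0.132). The 1 month calls were all lost with the block in the fit of only the groups compared. At 5 and 8 months no member was called (1.45% and 0.201% of all genes), with 13 and 1 at an unadjusted p below 0.05. Macrophage markers were higher in 2 of 14 cases. No member's IKO difference varied with age by the same test (0.0694% of all genes were called), with 2 members at an unadjusted p below 0.05.

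In group 2, 6 members were higher and 1 was lower in BKO non-tumour liver (19.6% of all genes were called, 10.6% higher and 9.04% lower), and the median of the 36 was 0.07 against 0.01 for all genes. Quantile normalization gave 8 higher and 0 lower. The WT libraries are shared with the MKO comparison. Cfi, the protease that inactivates C3b, had the clearest difference. It had 4164, 4519 and 3440 normalised reads in BKO against 3165, 2882 and 2951 in WT at 1 month, 3941, 3753 and 3573 against 2064, 2529 and 2126 at 3 months, 2981, 3569 and 2569 against 2190, 2351 and 2264 at 5 months, and 3404, 3059 and 2658 against 2373, 2184 and 2002 at 8 months. The genotypes did not overlap at any age, and the difference was 0.51 ± 0.07 (adjusted p = 4.72e-06). Kng1 was 0.42 ± 0.10 higher (adjusted p = 0.00301), C2 0.40 ± 0.10 (0.00386), C4b 0.36 ± 0.11 (0.0173) and Hc 0.35 ± 0.10 (0.0113). Serpinc1 was 0.29 ± 0.09 higher (0.0214) and F5 0.25 ± 0.08 lower (0.0262). Within single ages, calls were fewer. None was made at 1 month (4.37% of all genes, 5 members at an unadjusted p below 0.05). At 3 months Cfi was 0.74 ± 0.15 higher (adjusted p = 0.00298; 1.54% of all genes called) and at 5 months Hc was 0.65 ± 0.20 higher (adjusted p = 0.0419; 6.44%). At 8 months C2 was 0.68 ± 0.20 higher and Masp1 0.57 ± 0.17 lower (adjusted p = 0.0385 and 0.0496; 4.91%). With only the groups compared in the fit, the calls at 5 and 8 months were lost and 1 other member was called at each of 1 and 8 months; with the replicate block added, no member was called at 3, 5 or 8 months. The Serpinc1 call was lost without WT replicate 1 at 3 months (adjusted p = 0.0504), and the F5 call without BKO replicate 2 at 3 months (0.0539) or WT replicate 3 at 5 months (0.0503).

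Masp1 was the member whose BKO difference varied with age (0.663% of all genes were called). It had 1134, 1106 and 757 normalised reads in BKO against 667, 662 and 920 in WT at 1 month, and 485, 634 and 543 against 855, 900 and 744 at 8 months. BKO libraries thus lay partly above WT at the first age and all below it at the last. The differences were 0.40, 0.37, −0.38 and −0.57 at 1, 3, 5 and 8 months (adjusted p = 0.0446). That call was lost under 17 of 24 single omissions and with the replicate number as a block (0.0518). It was also lost under quantile normalization, by limma-voom, and with only the groups compared in the fit, with or without the block. Members called in those last fits were other genes. Beside these values, 11 of 12 stellate cell markers, 7 of 14 macrophage markers and 6 of 8 cholangiocyte markers were higher in BKO liver, and 2 of 10 hepatocyte markers were higher and 1 lower. The stellate sums were 4092 to 6838 normalised reads in BKO and 2473 to 4577 in WT. Of 30 other coagulation genes 7 were higher and 0 lower, among them Vwf (0.59) and Serpind1 (0.41), and of 25 other acute phase genes 9 were higher and 2 lower, Hpx by 0.97. The part of these lists in the member differences was not tested.

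In MKO non-tumour liver 3 members were lower and 0 higher (2.71% of all genes were called, 1.58% higher and 1.13% lower). Another 11 members had an unadjusted p below 0.05. Fga had 11248, 12494 and 11164 normalised reads in MKO against 16205, 16157 and 15904 in WT at 1 month and 7730, 7412 and 7274 against 12518, 11462 and 8887 at 3 months, without overlap. At 5 months it had 9463, 9149 and 8628 against 9921, 9446 and 11268, and at 8 months 9495, 10878 and 8790 against 13662, 14832 and 10103, with overlap. Fga was 0.39 ± 0.08 lower over the ages (adjusted p = 0.00691; means 9477 and 12531). Fgb and Fgg were 0.32 and 0.21 lower without being called. C8a, the alpha chain of C8, was 0.46 ± 0.09 lower (adjusted p = 0.00439; means 868 and 1207). Cfi was 0.36 ± 0.07 lower (adjusted p = 0.00568; means 1913 and 2423), from differences of −0.49, −0.52, −0.55 and 0.14 at 1, 3, 5 and 8 months. These 3 calls held under each omission of a single library. Within single ages, no member was called at 1, 3 or 5 months (0.185%, 0.0231% and 0.0463% of all genes), with 8, 6 and 2 members at an unadjusted p below 0.05. At 8 months C8a was 0.62 ± 0.19 lower (adjusted p = 0.0416; 5.74%), a call lost when only the groups compared were fitted. The test over all 4 ages called no member's MKO difference as varying (0.339% of all genes were called), with 6 at an unadjusted p below 0.05. Of 10 hepatocyte markers 2 were lower, and 1 of 14 macrophage markers was higher.

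**Figure D4:**
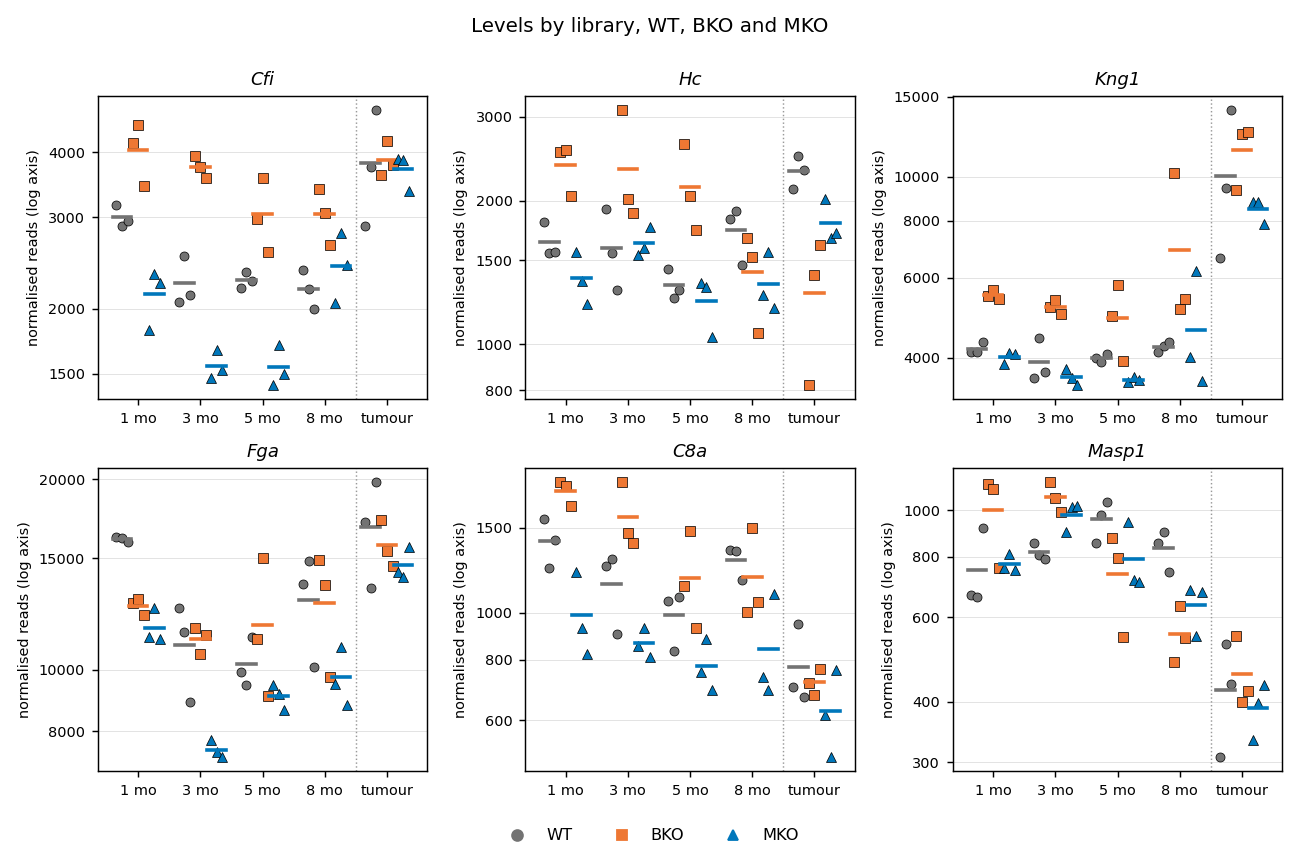
Normalised reads per library of Cfi, Hc, Kng1, Fga, C8a and Masp1 in group 2 at 1, 3, 5 and 8 months (non-tumour) and in 8 month tumours: WT grey circles, BKO orange squares, MKO blue triangles, bars for means. The Cfi squares of BKO lie above all circles at each age in non-tumour liver, and the Fga triangles of MKO lie below them at 1 and 3 months.

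Tumours of the knockouts were then compared with WT tumours of the same set. In IKO tumours 4 members were higher and 0 lower (3.6% of all genes were called). Mbl2 had 3341, 2100, 1906 and 2520 normalised reads in IKO tumours against 985, 982, 749 and 1130 in WT tumours, a difference of 1.32 ± 0.16 (adjusted p = 1.34e-06). C6 had 1389, 705, 1011 and 766 against 387, 279, 171 and 380, a difference of 1.59 ± 0.32 (adjusted p = 0.00124). Neither gene's groups overlapped. Mbl1 was 0.79 ± 0.19 higher, at 471, 336, 385 and 419 against 304, 159, 169 and 285 (adjusted p = 0.00891), and Masp2 0.52 ± 0.15 higher (adjusted p = 0.0296). Mbl1 lost its call without IKO tumour replicate 1 (adjusted p = 0.0515) or WT tumour replicate 2 (0.0745) or 3 (0.0738), and Masp2 without IKO replicate 1 or 4 or WT replicate 2 or 3 (0.0892 to 0.300).

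The difference between the tumour effects themselves was tested as an interaction. Mbl2 fell by 1.47 ± 0.23 less from liver to tumour in IKO than in WT (adjusted p = 0.000709; 0.123% of all genes were called), and no other member was called, C6 being at 1.83 ± 0.45 (adjusted p = 0.0666). In SKO, BKO and MKO no member's tumour effect was called different from that of WT (0.0308%, 0.0308% and 0.131% of all genes were called). Members at an unadjusted p below 0.05 numbered 8, 6 and 6, a threshold at which all genes were not counted. For Mbl2 the difference was 0.94 ± 0.23 in SKO (adjusted p = 0.0679), 0.65 ± 0.44 in BKO and 1.19 ± 0.44 in MKO.

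In BKO tumours Hc was lower (0.548% of all genes were called), with 820, 1400 and 1615 normalised reads against 2120, 2482 and 2319 in WT tumours and no overlap (0.89 ± 0.20, adjusted p = 0.0285). That call was lost without BKO tumour replicate 1 (adjusted p = 0.179) or 2 (0.0692) or WT tumour replicate 2 (0.0696) or 3 (0.0626), and when only the compared groups were fitted (0.703). No member was called in SKO tumours, where 7 had an unadjusted p below 0.05 and limma-voom on the recovered reads called 1 (1.72% of all genes were called). None was called in MKO tumours either, with 6 at an unadjusted p below 0.05 and 0 by limma-voom (4.03% of all genes were called). F11, the member with the largest SKO decrease in liver, was at 447, 313, 509 and 416 normalised reads in SKO tumours against 431, 938, 951 and 627 in WT tumours, with overlap (−0.72 ± 0.28, adjusted p = 0.197). In MKO tumours 10 of 14 macrophage markers were higher, with sums of 7511 to 14665 normalised reads against 3275 to 3794 in WT tumours, and 9 of 25 other complement genes, including C1qc (1.33), were higher while no member was called.

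**Figure D5:**
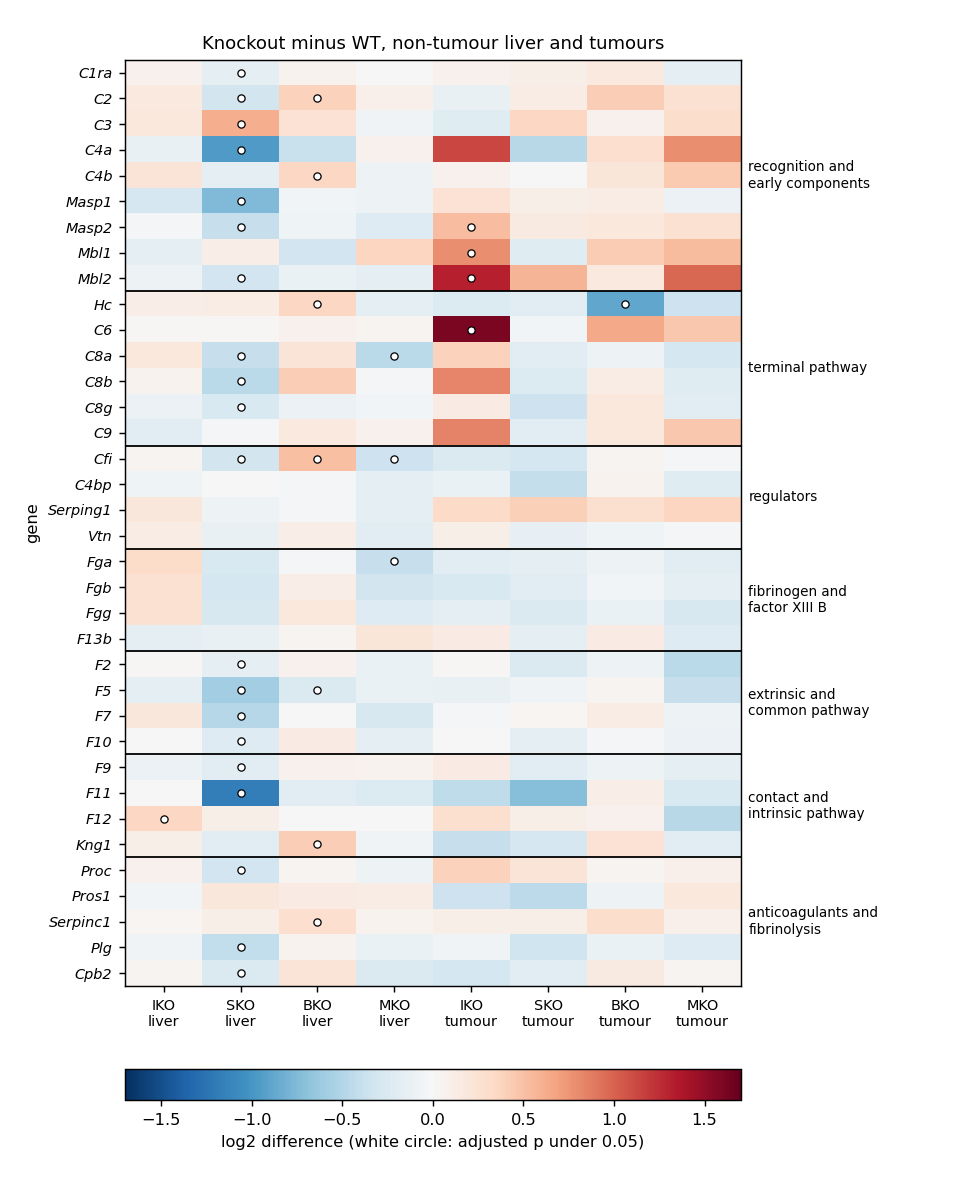
Difference between knockout and WT (log2) of the 36 genes in non-tumour liver, averaged over 4 ages, and in tumours, for IKO, SKO, BKO and MKO; white circles mark an adjusted p below 0.05. The SKO liver column holds 20 circles, 19 of them negative, and the SKO and MKO tumour columns hold none.

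In WT liver from 1 to 8 months, 2 members rose and 2 fell in group 1 (7% of all genes were called) and 1 rose in group 2 (1.72%). C4a had 104, 59.8, 27.9 and 55.9 normalised reads at 1 month and 313, 395, 413 and 263 at 8 months in group 1, a rise of 2.14 ± 0.48 (adjusted p = 0.00346). In group 2 it had 57.1, 53.3 and 94.8 against 848, 771 and 902, a rise of 3.22 ± 0.54 (adjusted p = 0.000959). The ages did not overlap in either set. In group 1, C2 fell by 0.74 ± 0.18 (adjusted p = 0.00644) and Plg by 0.66 ± 0.17 (0.0126, and 0.0595 without WT replicate 2 at 1 month), and F2 rose by 0.42 (0.0301, lost under 5 of 8 omissions). In group 2 these 3 were at −0.50, 0.06 and −0.04, and none was called. Under quantile normalization group 1 had 1 higher and 5 lower.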

How the data were processed

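The deposited table holds 12966 genes by 105 libraries of bulk mouse liver RNA, made with a method that counts 3′ ends. Per the submitters' processing notes, the tools were STAR 2.7.10a, HTSeq 2.0.2 and DESeq2 1.32.0 with the builds GRCm38 and mm10; the transform is not given in the sources used here. The values the authors deposited are on a log2 scale with a floor of 3.8289. With the transform undone, 100.0% of values lay within 0.05 of a whole read number, and the normalised reads and depths printed come from these reads. The values were analysed as deposited. limma 3.58.1 (R 4.3.3) fitted 1 mean per group within each sequencing group (eBayes with trend), and p-values were adjusted by Benjamini-Hochberg over all genes; tables were made with Python 3.11.15, pandas 2.3.3 and numpy 2.4.6. Non-tumour differences average the 4 ages with equal weight, and differences over age come from limma's F-test. In each comparison the called members with the largest differences, at most 6 in each direction, were described, with per-library values for at most 3 of them; further members are named so that each is accounted for. Of each other list at most 4 called genes with the smallest p were named. The fit was also run on simulated independent libraries with log2 shifts of 1 or 2. Such data cannot check smaller differences or libraries that share an animal. Alternatives were a filter on low values (mean of 6 or more), quantile normalization, a replicate block, a fit of only the groups compared, limma-voom on recovered reads, and leaving out each library. Same-numbered libraries deviated together (every correlation over 0.1) in 2 of 28 pairs of groups checked, BKO tumour and liver and MKO and WT liver at 8 months; no label gives a shared animal. No 2 libraries of a group agreed within counting noise (lowest chi-square per gene 6.04 over 135 pairs). The members and the gene lists were chosen with earlier results of these data known. Positions and promoters come from RefSeq (GRCm38.p6).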

Additional observations from a re-analysis of the deposited data

Results flagged for a closer look

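In groups of 4 libraries, 10 of 270 sets of values held 1 library far from the other 3. That is below the rate of about 1 in 20 that chance gives, so their number is no sign of an excess. C9 had 18323 normalised reads in WT replicate 2 at 1 month, against 12306 to 13315 in the others, and 7106 in WT tumour replicate 1, against 878 to 1655. C8b had 4190 in IKO tumour replicate 1 (others 1888 to 2093) and 868 in SKO tumour replicate 2 (others 1183 to 1245). Masp1 had 382 in WT replicate 1 at 5 months (others 485 to 504), F5 had 2052 in SKO tumour replicate 3 (others 2438 to 2498), and F12 had 5848 in WT liver replicate 3 at 8 months (others 4855 to 4977). Hc had 2791 in SKO replicate 3 at 3 months (others 1708 to 1817) and 3355 in SKO liver replicate 4 at 8 months (others 2092 to 2297). The share of reads in the 36 genes was 3.77% in WT tumour replicate 1 of group 1 and 2.25 to 2.32% in the other 3.

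Some effects differed between groups by a test of the difference itself. The tumour effect on Mbl2 differed by 1.47 (log2) between IKO and WT. The SKO difference varied with age for C4bp (adjusted p = 0.0113), F12 (0.0277) and F13b (0.0336), and the BKO difference for Masp1 (0.0446), all by limma's F-test over the 4 ages. The Masp1 call was lost under 17 of 24 single omissions and in the other fits named for it above. Of the 3 SKO calls, 1 was kept under quantile normalization.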

How the results depend on the processing

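Of 174 counts of called members under other settings, 138 stayed within 1.5 times the count reported and 36 did not; of 476 counts with 1 library left out, 415 did and 61 did not. Calls of single members were followed in the same way, with those at single ages not counted. Of these, 107 of 954 were lost under another setting and 173 of 1916 with 1 library left out. A change of sign was seen in 0, though F-test calls have no sign to change. With only the groups compared in the fit, the counts for tumour against liver were 9 in WT of group 2, 0 in BKO and 0 in MKO (reported 16, 9 and 15); non-tumour IKO had 4 (1) and MKO 6 (3); IKO at single ages had 3 (5), MKO at single ages 0 (1), IKO tumours 2 (4), BKO tumours 0 (1), the IKO tumour-effect difference 2 (1) and age in WT of group 2 had 2 (1). With the replicate block added to that fit the counts were 6 in WT of group 2 and 1 in MKO tumour against liver, 4 in non-tumour IKO, 7 in non-tumour MKO, 0, 11, 0 and 0 at single ages in IKO, SKO, BKO and MKO (reported 5, 24, 4 and 1), 2 in IKO tumours, 0 in BKO tumours, 2 for the IKO tumour-effect difference, and 2 and 1 for variation with age in BKO and MKO (1 and 0). With the replicate block in the fit of all groups, IKO at single ages had 3 and variation with age in BKO 0; the block moved no other count by over 1.5 times. Quantile normalization gave 3 in non-tumour IKO, 3 in IKO at single ages, 5 in non-tumour MKO, 2 in SKO tumours (0), 0 for variation with age in BKO and 2 for age in WT of group 2. The filter on low values gave 1 in SKO tumours, and limma-voom gave 1 there and 0 for variation with age in BKO. Without the 3 libraries that stood apart, non-tumour IKO had 2. The cause was not tested.

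With 1 library left out, called members ranged from 1 to 2 in non-tumour IKO, 18 to 22 in SKO, 6 to 9 in BKO and 3 to 4 in MKO; at single ages from 2 to 6, 20 to 27, 2 to 4 and 0 to 2; for variation with age from 0 to 0, 2 to 4, 0 to 1 and 0 to 1; in tumours from 2 to 8, 0 to 2, 0 to 1 and 0 to 3; and for tumour-effect differences from 1 to 3, 0 to 2, 0 to 1 and 0 to 2, each for IKO, SKO, BKO and MKO. For tumour against liver they ranged from 23 to 28 in WT of group 1, 17 to 22 in IKO, 21 to 24 in SKO, 14 to 20 in WT of group 2, 3 to 11 in BKO and 7 to 17 in MKO, and for age from 3 to 4 in WT of group 1 and 1 to 1 in group 2. Leaving 1 library out of a group of 3 leaves 2, with the spread taken from all groups of the set. At the depths here no member was at 0, and C4a, at 5 reads in its lowest library, is the member most limited by depth.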
